A study of Caenorhabditis elegans with 22 samples.

Results

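The effect of deleting cec-4 on contacts between chromatin and the nuclear periphery was measured in intestine cells of Caenorhabditis elegans L1 larvae whose mothers had been fed mrg-1 RNAi. The comparison used 10 of the 22 libraries of the study. They form 5 pairs, each joining the 2 fusions at a given replicate number, 3 pairs with the deletion and 2 without it. All nuclear windows of 100 kb were compared, 1005 in number, and the only criterion was the sample label.

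DamID tethers a bacterial adenine methyltransferase, Dam, to a protein of interest, and DNA that meets the fusion is methylated at GATC sites and sequenced. EMR-1 is the worm emerin, a LEM-domain protein of the inner nuclear membrane, so Dam::EMR-1 marks DNA at the nuclear rim, while a nuclear GFP::Dam marks accessible DNA. CEC-4 is a chromodomain protein of the nuclear envelope that binds methylated histone H3 lysine 9 and anchors heterochromatin, which in worms is concentrated on the chromosome arms. MRG-1 is a chromodomain protein of the MRG15 family, which binds chromatin marked by H3 lysine 36 methylation, and it has been studied for the positioning of heterochromatin in intestine cells.

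Strains GW1377 (Dam::EMR-1) and GW1378 (GFP::Dam) carried wild-type cec-4, and strains GW1379 (Dam::EMR-1) and GW1380 (GFP::Dam) carried cec-4(ok3124). All 4 strains received mrg-1 RNAi, so by their labels the groups differed only in cec-4. L1 larvae of the parental generation fed on the RNAi bacteria for 66 h at 20 °C, and their progeny, hatched without food, spent 2.5 h in liquid culture before harvest. The fusions came from the hsp-16.41 promoter without heat shock, and FLP recombinase driven by the elt-2 promoter restricted them to the intestine. The strains of a replicate number were grown in parallel, and replicate 1 of mrg-1 RNAi with wild-type cec-4 was removed by the submitters for technical reasons. RNAi lowers the activity of a gene without removing it, so mrg-1 activity may remain. The knockdown was not checked here, since these data hold no transcript level. The deletion was not looked for in the reads over cec-4, and its extent is not given in the sources used here.

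The 5 Dam::EMR-1 libraries held 3335235 to 11158846 nuclear reads and the 5 GFP::Dam libraries 5386535 to 12562991. A median window of 100 kb held 2302 to 8783 reads. A single window at the right end of chromosome I, which holds the ribosomal RNA genes, took 7.85% to 22.4% of the reads of GFP::Dam libraries and 0.699% to 1.54% of those of Dam::EMR-1 libraries. Its reads count in library totals, so the tests of 100 kb windows, of parts and of pair values were repeated without it.

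With cec-4 deleted, the contrast between chromosome arms and centres was smaller on the autosomes and on X. The value of a pair was the mean log2 ratio of Dam::EMR-1 to GFP::Dam over arm windows minus that over centre windows, where arms are the outer 2 of 3 equal lengths of a chromosome. On the autosomes it was 2.34 and 2.34 in the pairs with wild-type cec-4 (replicates 2 and 3) and 1.48, 1.52 and 1.67 in the deletion pairs (replicates 1 to 3). The groups did not overlap, and even the highest deletion pair lay well below both others. The means were 2.34 ± 0.0037 (SD, n = 2) and 1.56 ± 0.098 (SD, n = 3), a difference of -0.79 (exact permutation p = 0.1, two-sided). With 2 pairs against 3 there are 10 arrangements, so 0.1 is the smallest p this design allows. Within replicate number 2 the difference was -0.83, and within number 3 it was -0.67.

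On X the arm minus centre value was 1.53 and 1.58 in the pairs with wild-type cec-4 and 0.98, 0.89 and 1.21 with the deletion. These groups did not overlap either. The difference was -0.53 (exact permutation p = 0.1, two-sided), with -0.64 within number 2 and -0.37 within number 3. Each autosome gave a negative difference. It was -0.998 on chromosome III, -0.96 on I, -0.93 on V, -0.66 on II and -0.42 on IV, and on no chromosome did the pairs overlap. The exact p was 0.2 on IV and 0.1 on the others. On IV 1 of the other arrangements gave an absolute difference at least as large. The spread of the autosomal map, the SD of the log2 ratio over windows, overlapped between groups when replicate numbers were ignored. It was 1.62 and 1.90 without the deletion and 1.59, 1.28 and 1.68 with it (difference -0.24, exact permutation p = 0.4). Within replicate number 2 the SD differed by -0.34, and within number 3 by -0.22. The difference of the group means was -0.10 without pair 3 of wild-type cec-4, -0.38 without pair 2 of that group and -0.12 without deletion pair 2.

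**Figure D1:**
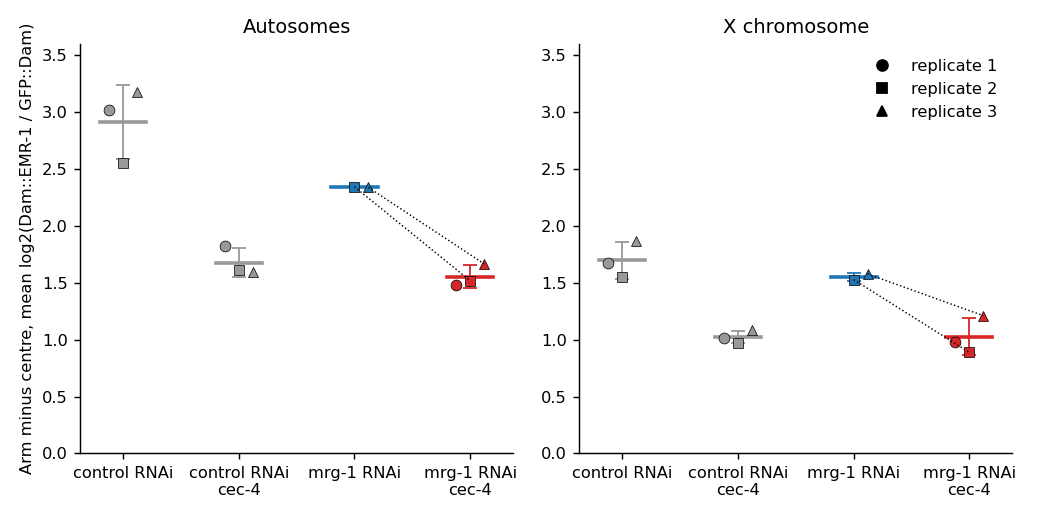
Arm minus centre difference of the mean log2(Dam::EMR-1 / GFP::Dam) over 100 kb windows for each library pair on the autosomes (left) and on X (right). Symbols give the replicate number, horizontal bars the mean, vertical bars the SD, and dotted lines join pairs of the same number. On the autosomes the pairs with mrg-1 RNAi and wild-type cec-4 sit at 2.34 and the deletion pairs between 1.48 and 1.67. Control RNAi is drawn in grey.

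Before each pair was centred on its own mean, most of the chromosome parts called were centres, and these were higher. Pair values of 18 chromosome parts, each chromosome cut into 3, were compared with limma over all 11 pairs of the study, and adjusted p-values are Benjamini-Hochberg over the 18 parts, called under 0.05. With cec-4 deleted 7 parts were called (38.9% of the 18), of which 6 rose (33.3%) and 1 fell (5.56%). Under the replicate block 8 were called, 6 higher and 2 lower. The parts that rose were the centres of I, II, III, V and X and the right arm of X. The part that fell was the left arm of chromosome III. The SE was 0.20 for each part, since the parts shared a common estimate of the spread. Parts of the same pairs are not independent, so the adjusted p-values of this fit may be too small. Without the ribosomal RNA window the SE differed between parts, from 0.074 to 0.27. There limma gave an adjusted p of 0.00420 for the centre of V and 0.00782 for those of I, III and X.

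In the centre of X the mean ratio was -2.68 and -2.92 without the deletion and -2.04, -1.58 and -2.12 with it, so even the lowest deletion pair lay above both others. The difference was 0.88 (limma, adjusted p = 0.000414). The order of the centres changed with the setting, and in 10 kb bins the centre of V gave 0.95 and that of X 0.80. The centre of V went from -1.86 and -1.78 to -0.80, -1.05 and -1.07, a difference of 0.85 (adjusted p = 0.000433). The centre of III rose by 0.78, that of I by 0.73 and that of II by 0.69 (adjusted p = 0.00103, 0.00182 and 0.00286). The centre of IV gave the smallest value of the 6 centres, 0.38, and was not called (adjusted p = 0.118). The right arm of X rose by 0.54 (adjusted p = 0.022). That call was lost without deletion pair 2 or 3, without pair 3 of wild-type cec-4, and in bins of 10 kb.

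Among the arms, the left arm of III was called lower. Its mean ratio was 0.48 and 0.61 without the deletion and 0.10, -0.08 and -0.21 with it, and the groups did not overlap. The difference was -0.60 (limma, adjusted p = 0.00962). The right arm of the same chromosome gave 0.47 and 0.61 without the deletion and 0.84, 0.57 and 0.71 with it, a difference of 0.17 that was not called (adjusted p = 0.529). The right arm of I was also called lower with the replicate block (-0.45, adjusted p = 0.00915) and without the ribosomal RNA window (-0.41, adjusted p = 0.00782), while with neither change it was not called (-0.39, adjusted p = 0.118). The call on the left arm was lost without pair 3 of wild-type cec-4 (-0.54, adjusted p = 0.134), without deletion pair 3 (-0.53, adjusted p = 0.0627) and in bins of 10 kb (-0.60, adjusted p = 0.0984). The calls of the I and II centres were lost without pair 2 of wild-type cec-4 (0.55 and 0.58, adjusted p = 0.0940 and 0.0833), and that of the II centre also without the ribosomal RNA window (0.68, adjusted p = 0.0610).

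The mean of the whole map also differed between groups, -0.37 and -0.29 without the deletion against -0.0025, -0.15 and -0.16 with it (0.23, exact permutation p = 0.1). After each pair was centred on its own mean, 4 parts were higher (22.2%) and 5 lower (27.8%). The centres of I, III, V and X remained called, and the centre of II (0.46, adjusted p = 0.0665) and the right arm of X (0.31, adjusted p = 0.0828) did not. The left arm of III was lower by this measure too (-0.83, adjusted p = 3.05e-05), as were the right arm of I, the left arm of II, the left arm of IV and the right arm of V. A ratio of library shares gives positions relative to the rest of the genome, so it cannot be told apart whether centres rose or arms fell in absolute contact.

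Single windows were tested with edgeR's quasi-likelihood test in a fit over all 22 libraries, on the difference between groups in the log2 ratio of Dam::EMR-1 to GFP::Dam. Of 1004 windows that passed the filter on low counts, 2 were called lower (0.199%) and 0 higher (0%) at a Benjamini-Hochberg adjusted p under 0.05. At an unadjusted p under 0.05 there were 135, of which 86 were higher and 49 lower (210 with the replicate block). DESeq2 called 3 lower and 0 higher. With the replicate number as a block, 10 windows were called (0.996%), 3 higher (0.299%) and 7 lower (0.697%). The median fitted difference over all windows was 0.15.

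Both called windows lay on the left arm of III. III:3200001-3300000 holds frm-8, which encodes a FERM-domain protein, nduf-9, which encodes a subunit of mitochondrial complex I, and mfsd-8.3, of the major facilitator superfamily. Its log2 ratio was 0.74 and 1.21 with wild-type cec-4 and -2.06, -0.59 and -1.78 with the deletion. The ratio was above 0 in both pairs of the first group and below 0 in the 3 pairs of the second. The fitted difference was -2.51 ± 0.48 (SE, edgeR adjusted p = 0.0166). The Dam::EMR-1 libraries alone held 712 and 954 CPM (counts scaled to library size) there without the deletion and 130, 337 and 179 with it, while the GFP::Dam libraries held 425 and 411 against 544, 507 and 618.

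III:2900001-3000000 holds cdh-1, which encodes a cadherin, idpa-1, and the end of daf-2, the insulin and IGF receptor gene. Its log2 ratio was 1.45 and 1.83 with wild-type cec-4 and 0.19, 0.14 and -0.16 with the deletion, so the window went from well above to about the level of the GFP::Dam control. The fitted difference was -1.65 ± 0.32 (SE, edgeR adjusted p = 0.0166). Under control RNAi the same window fell by 1.72 (adjusted p = 0.00428), and the window of frm-8 gave -0.85, which was not called (adjusted p = 0.182). The difference between the RNAi conditions was -1.65 ± 0.63 for the frm-8 window (unadjusted p = 0.0159, adjusted p = 0.997) and 0.07 ± 0.42 for the cdh-1 window. The frm-8 window was picked for its change under mrg-1 RNAi, which enters this difference, so the unadjusted p is biased by that choice.

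The calls of these windows depended on most of the libraries. Leaving out any of the 10 libraries in turn kept both windows lower, from -2.88 to -2.10 for the frm-8 window and from -1.76 to -1.52 for the cdh-1 window. The frm-8 window lost its call in 6 of the 10 and the cdh-1 window in 7, with adjusted p-values up to 0.268 and 0.267. The call of both was lost without Dam::EMR-1 replicate 3 of either group, without either GFP::Dam library of wild-type cec-4, and without GFP::Dam deletion replicate 1 or 3. The cdh-1 window also lost it without GFP::Dam deletion replicate 2 (adjusted p = 0.0504). Scaling by library size ended both calls (adjusted p = 0.294 and 0.379), with differences of -2.37 and -1.54.

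In bins of 10 kb, 0 of 9960 were called (0%), with 304 at an unadjusted p under 0.05 (632 with the replicate block), and DESeq2 called 0. Each of the 2 windows had 9 of its 10 bins lower and 8 in which the pairs of the groups did not overlap, against 9.6% of all bins in that direction. These bins belong to windows picked for being lower, so the counts are a description. The first bin of the frm-8 window gave 2.64 and 5.78 with wild-type cec-4 and 1.33, 0.61 and -0.31 with the deletion. The 3 bins over cdh-1 lay between 1.51 and 3.02 without the deletion and between 0.07 and 1.04 with it. The bin of idpa-1 was the exception in its window, with 0.80 and 1.08 against 1.97, 0.94 and 0.24.

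The lower values ran on through the neighbouring windows. From the sms-3 window (III:1500001-1600000) to the golg-4 window (III:3400001-3500000), a stretch chosen after its values were seen, the fitted difference was negative in 20 of 20 windows, with a median of -1.13. The pairs did not overlap in 18 of them, against 10.3% of all windows in the same direction, and only the cdh-1 and frm-8 windows were called without the replicate block, against 6 windows of the stretch with it. The windows with the next smallest p-values were that of pqn-41, mboa-6 and moa-1 (III:1900001-2000000, -1.88 ± 0.43, adjusted p = 0.0871, or 0.0217 with the replicate block) and that of dpy-1, a gene whose mutants have short bodies, with ckr-2 and cpt-3 (III:2000001-2100000, -1.40 ± 0.40, adjusted p = 0.256, or 0.0317 with the block). The window of sms-3, a sphingomyelin synthase gene, held 1.14 and 1.57 without the deletion and 0.04, -0.93 and -0.87 with it (-2.002 ± 0.72, adjusted p = 0.256). The window next to the cdh-1 window, which holds most of daf-2, gave 0.52 and 0.35 against -0.97, -0.50 and -0.87. Across the stretch the ratio was above 0 in 18 and 14 windows of the pairs with wild-type cec-4 and in 8, 7 and 4 of the deletion pairs.

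**Figure D2:**
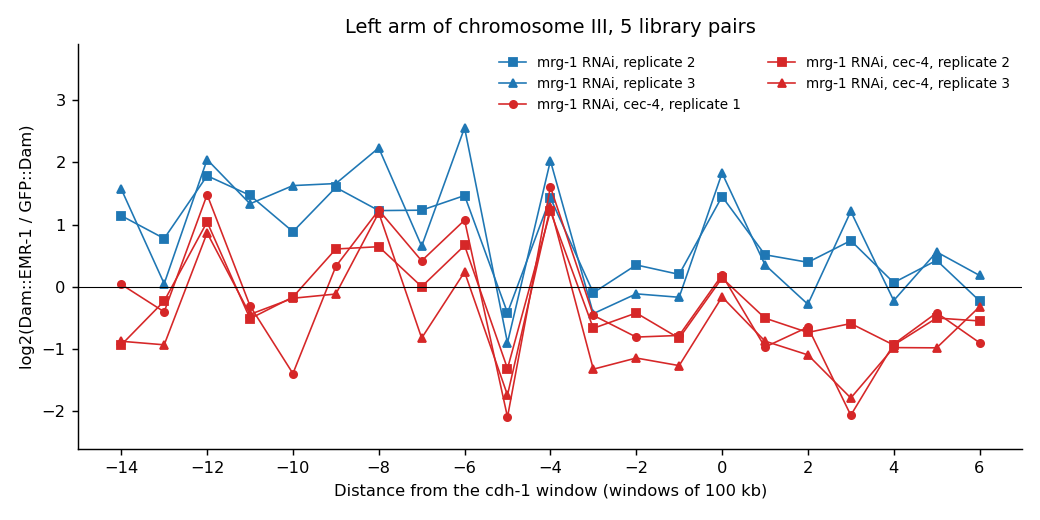
log2(Dam::EMR-1 / GFP::Dam) in consecutive 100 kb windows of the left arm of chromosome III for the 5 library pairs, by distance from the cdh-1 window (0). The frm-8 window is at 3 and the sms-3 window at -14. The deletion pairs (red) lie below the pairs with wild-type cec-4 (blue) in 18 of the 20 windows from -14 to 5.

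All 3 windows called higher under the replicate block lay in chromosome centres, and 7 of 7 called lower lay on the left arm of III. The higher ones were the window of che-11, which encodes an intraflagellar transport protein, with enpp-1 and hrg-14 (V:12100001-12200000), that of fig-1, ctf-4 and nas-31 (V:10900001-11000000) and that of zyg-1, the kinase that starts centriole duplication, with mdt-26 and dhs-6 (II:5600001-5700000). The zyg-1 window went from -1.56 and -1.75 to 0.91, -0.55 and -0.51. Without the block none of these 3 was called (adjusted p = 0.256).

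The 4 windows with the smallest p-values among the higher ones were all in centres, and none was called without the block (edgeR adjusted p = 0.256 each). With the block only the che-11 window was (adjusted p = 0.0217), and the kvs-1, sma-1 and atl-1 windows gave 0.0551, 0.0569 and 0.0551. The che-11 window gave -2.35 and -2.97 with wild-type cec-4 and -0.30, -1.09 and -0.98 with the deletion (1.78 ± 0.50). The window of kvs-1 and twk-17, potassium channel genes, and stn-2, a syntrophin gene (X:7600001-7700000), gave -2.65 and -2.27 against -1.45, -1.14 and -0.90 (1.23 ± 0.35). The window of sma-1, which encodes the heavy beta spectrin of epithelia, with aman-2 and gcy-33 (V:11900001-12000000), gave -4.46 and -4.07 against -2.19, -3.02 and -3.14 (1.47 ± 0.42). In each of these 3 windows the deletion pairs lay above the others yet stayed below 0. The window of atl-1, the ATR checkpoint kinase gene, with dop-2 and hcp-2 (V:9600001-9700000) changed sign, from -0.84 and -0.14 to 1.199, 0.34 and 0.95 (1.26 ± 0.37).

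**Figure D3:**
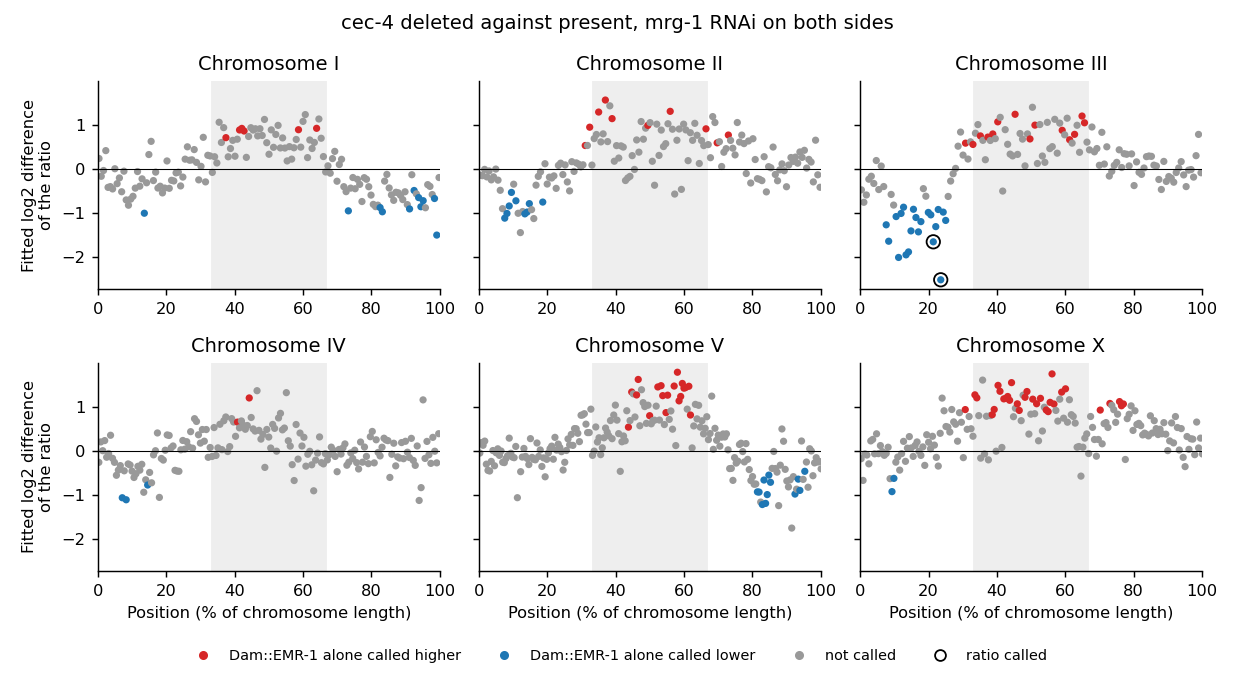
Fitted log2 difference in the ratio of Dam::EMR-1 to the control fusion, cec-4 deleted minus present under mrg-1 RNAi, for each 100 kb window by its place along the chromosome (percent of chromosome length). The inner part of each chromosome is shaded, red and blue points are windows called higher (82) or lower (58) in Dam::EMR-1 alone, and circles mark the 2 windows whose ratio was called, both on the left arm of III.

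Counted over windows, the same division appeared. In autosome centres the median fitted difference was 0.65, and in 136 of 275 windows the deletion pairs lay above the others with no overlap, against 27.2% of all windows, and in 0 of 275 below. In the centre of X the median was 0.91, with 40 of 59 windows higher and 0 lower. The arms of X had a median of 0.32, with 31.1% of windows higher and 2.52% lower. Autosome arms had a median of -0.15, with 60 of 551 windows higher (10.9%) and 100 lower (18.1%, against 10.3% of all windows). Of the 46 windows of the left arm of III, 26 were lower and 4 higher with no overlap, with a median of -0.69. These 26 are among the 100, so this arm supplied a large part of the lower windows. Neighbouring windows share fragments and large domains, so they are not independent.

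The difference changed sign with distance from the chromosome end. On the autosomes the median over windows in the outermost 10% of chromosome length from either end was -0.24, from 10% to 20% it was -0.35, from 20% to 30% it was 0.04, from 30% to 40% it was 0.53, and in the innermost windows, from 40% to 50%, it was 0.66. The median ratio itself was 1.19 without the deletion and 0.84 with it in the outermost windows. In the innermost windows it was -1.81 and -1.13. The medians at both ends of this range were therefore closer to 0 with cec-4 deleted. Single autosome arms differed, from -0.60 on the left arm of III to 0.31 on the right arm of II.

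The 2 fusions were also compared separately. The Dam::EMR-1 libraries alone gave 82 windows higher (8.17%) and 58 lower (5.78%) with the deletion (edgeR, 13.9% of windows in both directions). The GFP::Dam libraries gave 0 windows called (0%) and 0 at an unadjusted p under 0.05 (9 with the replicate block), and DESeq2 also called 0. Their fitted differences ran from -0.92 to 0.68, against -2.11 to 1.89 for Dam::EMR-1, with a median SE of 0.32 and 0.33. The SD of the GFP::Dam differences over windows was 0.22, below their median SE. Without any effect a calibrated test gives p under 0.05 in a share of about 0.05 of windows, so this test was conservative. It could not show that GFP::Dam stayed the same. Dam::EMR-1 enters the ratio, so these counts are not a separate measure of it.

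Of the 82 windows higher in Dam::EMR-1 alone, 45 lay in autosome centres, 31 on X and 6 on autosome arms. Of the 58 lower, 56 lay on autosome arms, 21 of them on the left arm of III, and 2 on X. The largest rise was in the window of cubn-1, which encodes a cubilin homolog, with frpr-15 and lin-25 (V:12600001-12700000), at 302 and 86.9 CPM without the deletion and 1112, 843 and 279 with it (1.89 ± 0.53, adjusted p = 0.0245). The lowest deletion library there lay below the higher of the others, so the groups overlapped in Dam::EMR-1 alone. The largest fall was in the frm-8 window (-2.11 ± 0.33, adjusted p = 0.000721). The count was 296 with the replicate block (29.5%), with 185 higher and 111 lower. It was 16 with scaling by library size (9 higher, 7 lower), while with the spread estimated from these groups only it was 20, of which 1 was higher and 19 lower. Without Dam::EMR-1 replicate 3 of wild-type cec-4 it was 17, with 2 higher and 15 lower. Without deletion replicate 2 it was 78 (38 higher, 40 lower), and without deletion replicate 3 it was 91 (51 higher, 40 lower).

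**Figure D4:**
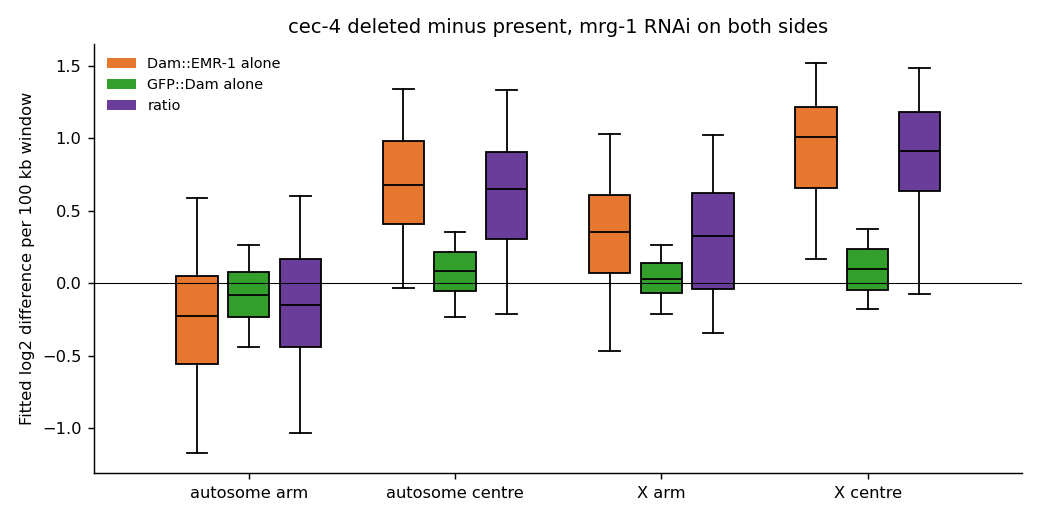
Fitted log2 differences per 100 kb window, cec-4 deleted minus present under mrg-1 RNAi, for Dam::EMR-1 alone, GFP::Dam alone and their ratio, by place. Boxes give the quartiles with the median and whiskers the 5th and 95th percentiles over windows. The GFP::Dam boxes lie near 0 in each place, while the Dam::EMR-1 medians are 0.68 in autosome centres, 1.01 in the centre of X and -0.23 on autosome arms.

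The difference followed the level that a window had in wild-type larvae under control RNAi, measured in libraries outside this comparison. Windows were put in 5 equal strata by that ratio. In the lowest stratum, with a median wild-type ratio of -3.17, the median difference was 0.75, and in the next it was 0.54. It was 0.09 in the middle stratum, -0.10 in the fourth and -0.23 in the highest, where the median wild-type ratio was 1.90. The mean ratio of the lowest stratum was -2.97 and -3.07 in the pairs with wild-type cec-4 and -2.31, -2.05 and -2.56 in the deletion pairs, with no overlap. That of the highest stratum was 1.61 and 2.14 against 1.90, 1.33 and 1.70, and there the groups overlapped. Within replicate number 2 it still went down, from 1.61 to 1.33, and within number 3 from 2.14 to 1.70. Place and level go together, since 163 of the 201 windows of the lowest stratum and 1 of the 201 of the highest lay in centres. Within autosome centres the median difference lay between 0.50 and 0.77 in each of 5 strata, and within autosome arms it went from 0.11 in the lowest to -0.20 in the highest.

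**Figure D5:**
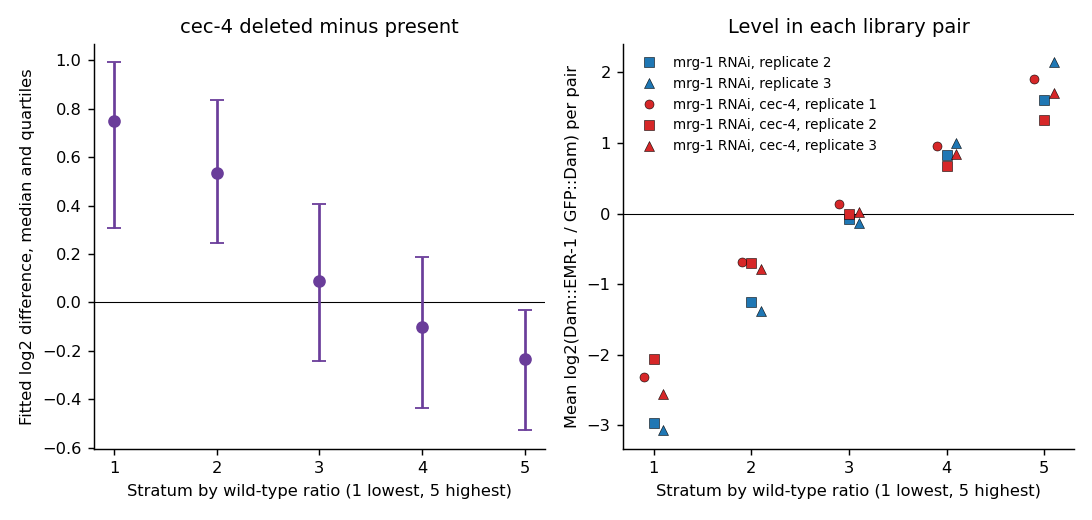
Left, median and quartiles over windows of the fitted log2 difference, cec-4 deleted minus present under mrg-1 RNAi, in 5 strata of the wild-type ratio under control RNAi. Right, mean log2(Dam::EMR-1 / GFP::Dam) of each library pair in the same strata. The medians go from 0.75 in the lowest stratum to -0.23 in the highest. In the highest stratum the pair values of the groups overlap, while within replicate numbers 2 and 3 the deletion pair is the lower.

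Deletion of cec-4 under control RNAi, measured in 12 other libraries of the same strains, gave values of the same sign in most windows. There 57 windows were called (5.68%), of which 46 rose (4.58%) and 11 fell (1.10%). Of the 46, 45 were also higher under mrg-1 RNAi, 34 of them with no overlap between pairs, and of the 11, 11 were lower, all with no overlap. Over all 1004 windows, 599 were higher in the fit under mrg-1 RNAi, 27.2% were higher and 10.3% lower with no overlap, and 796 had the same sign in both comparisons. The median difference of the 46 was 1.51 under control RNAi and 0.80 under mrg-1 RNAi, and that of the 11 was -1.32 and -0.98. The windows were picked for a large value under control RNAi, so a smaller value in the other comparison is no measure of a difference. Across the 1004 windows the fitted differences of the comparisons had a Pearson r of 0.74 and a Spearman rho of 0.75, which are across windows that share their place and the scaling of the fit.

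The difference between the RNAi conditions was tested directly. In edgeR 0 windows were called (0%), with 11 at an unadjusted p under 0.05 (28 with the replicate block) and the smallest adjusted p at 0.997, and DESeq2 called 0. Like the test of GFP::Dam alone, this test gave p under 0.05 in less than a share of 0.05 of windows. It was therefore conservative and could not show that the cec-4 effect was the same in the RNAi conditions. Among 18 parts limma called 0. Its estimates for the centres ran from -0.56 on II to -0.27 on X, and those for the arms from -0.25 to 0.14. For the autosomal arm minus centre value, cec-4 deletion gave -1.24 under control RNAi, from 2.92 ± 0.33 to 1.68 ± 0.13 (SD, n = 3 each), and -0.79 under mrg-1 RNAi. The difference of these was 0.45, with 0.12 within replicate number 2 and 0.91 within number 3, and was not tested for the summary value. On single chromosomes it ran from 0.15 on X to 0.61 on II, though within number 2 it was -0.07 on X and -0.08 on II. The window of ogt-1, the O-GlcNAc transferase gene (III:7100001-7200000), gave 2.16 ± 0.52 under control RNAi (adjusted p = 0.0251) and 0.13 ± 0.57 under mrg-1 RNAi (adjusted p = 0.96), a difference of -2.03 ± 0.77 that was not called (unadjusted p = 0.0156). In the hypoxia pathway, egl-9 encodes a prolyl hydroxylase, and its window (V:10400001-10500000) gave 1.91 ± 0.37 and 0.80 ± 0.41, a difference of -1.11 ± 0.55 that was not called either. Both genes were named with earlier results of these data known, so their values are a description.

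Windows of genes tied to the design were not called. That of cec-4 itself (IV:7500001-7600000) gave -2.05 and -1.97 without the deletion and -1.20, -1.48 and -1.65 with it (0.49 ± 0.48, adjusted p = 0.715). That of mrg-1 (III:12800001-12900000) stood high in all pairs, 1.78 and 2.69 against 2.82, 1.77 and 2.47 (0.03 ± 0.42). The window of elt-2, which encodes the GATA factor that drives intestinal genes and whose promoter drove FLP (X:10400001-10500000), gave -2.35 and -3.52 against -2.34, -1.40 and -1.36 (1.33 ± 0.50, adjusted p = 0.256), and its highest value without the deletion lay just below its lowest with it. That of elt-7, a GATA factor gene acting beside elt-2 (V:4700001-4800000), gave 0.02 ± 0.32. The window of emr-1 gave -0.39 ± 0.53 and that of hsp-16.41, whose promoter drove the fusions, 0.29 ± 0.38, with overlapping pairs in both.

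Gene groups were described in bins of 10 kb, where no bin was called (0%), so counts and medians stand in place of tests. The median fitted difference was 0.17 over all 9960 bins, -0.18 over autosome arm bins and 0.76 over autosome centre bins. Of all bins 57.3% were positive, with 41.0% on autosome arms and 80.6% in autosome centres. Bins of genes for nuclear anchoring and H3 lysine 9 methylation, a list that also held mrg-1, mes-4 and cbp-1, had a median of 0.71. In this list 22 of 26 bins were positive. Of these bins 53.8% lay on arms, against 66.6% of all bins, and whether the groups differ beyond their place was not tested. Within them met-2, which encodes an H3 lysine 9 methyltransferase, had the highest value (-1.32 and -2.63 against 0.65, -0.29 and -0.27, 1.86 ± 0.87), followed by lmn-1, the lamin gene (1.58 ± 2.01). The lowest were mrg-1 (-1.49 ± 0.79) and lin-65, which encodes a partner of MET-2 (-0.90 ± 1.88). Bins of intestinal genes had a median of 0.32 and 33 of 49 were positive (51.0% on arms). In that group pept-1, the peptide transporter gene of the gut, had the highest fitted value (3.79 ± 1.72) and vit-1, a yolk protein gene, the next. The pept-1 bin held -4.45 and -6.22 against -4.44, -3.24 and -2.36, so the groups nearly met. The vit-1 bin held -2.50 and -4.20 against 0.34, -0.49 and -1.42 (3.05 ± 0.96). The lowest were ifd-2, an intestinal intermediate filament gene (-1.84 ± 1.38), and gtl-1 (-1.59 ± 1.70).

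Among gene families, bins of F-box, MATH and BTB genes had a median of -0.48, with 86 of 295 positive, and 93.9% of them lay on arms. C-type lectin genes had a median of -0.21 (74 of 200 positive, 81.0% on arms) and nuclear hormone receptor genes -0.07 (125 of 268). Chemoreceptor genes, the largest group, had a median of 0.09 with 484 of 904 positive. Collagen genes had 0.50 (109 of 153, 47.7% on arms), hypodermal genes 0.53 (21 of 28, 53.6% on arms) and germline genes 0.49 (23 of 30, 43.3% on arms). Ribosome and proteasome genes had 0.28 (72 of 121, 59.5%), neuronal genes 0.25 (20 of 35, 57.1%) and muscle genes 0.14 (27 of 46, 58.7%), near the share of all bins. Families with near-identical members share reads, and how such reads were assigned is not given in the sources used here.

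The authors' deposited table of log2 ratios gave 0.998 for the frm-8 window with wild-type cec-4 and -1.33 with the deletion under mrg-1 RNAi. For the cdh-1 window the authors' deposited table gave 1.65 and 0.07, and for the ogt-1 window it gave -3.82 and -3.64.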

How the data were processed

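For each library the authors deposited counts of mapped reads in windows of 100 kb and bins of 10 kb (build ce11), without normalization. The authors also deposited log2 ratios of Dam::EMR-1 over GFP::Dam per background, pooled over replicates, which are quoted only where named. Neither the aligner nor the handling of repeats is given in the sources used here. Tables at 1 kb and log2 ratios at 10 kb were not used.

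Counts were tested with edgeR 4.0.16 in R 4.3.3 (TMM scaling, filterByExpr, quasi-likelihood F test, Benjamini-Hochberg adjustment) in a fit over 22 libraries in 8 groups of 2 or 3. The SE is the absolute log2 difference over the square root of F. Pair values are log2 ratios of CPM with a pseudocount of 1. Chromosome parts were tested with limma 3.58.1, and single values by exact two-sided permutation. DESeq2 1.42.0 was an alternative. The pipeline was tested on simulated data. No 2 libraries held identical counts. The labels call the replicates biological.

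Per the labels the strains were cultured side by side in each replicate, so the number pairs libraries. Deviations from group means correlated between libraries of the same number (0.581 and 0.603 for Dam::EMR-1, 0.874 and 0.693 for GFP::Dam, numbers 2 and 3). With wild-type cec-4 only these numbers exist, so their deviations are mirror images. The values of a fusion are therefore not independent of each other, and libraries of unlike numbers were not compared. Values under the replicate block stand beside the results they change.

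Named windows were up to 12 called each way, or the 4 with the smallest p where fewer than 4 were called, the windows of 10 preset genes and the largest for each fusion alone. Windows that only the block called, and the stretch on III, were chosen after their values were seen. A window is named by up to 3 genes that overlap it most, from an annotation of the same assembly. The 12 gene lists, the comparison and the named genes were chosen with earlier results of these data known. Alternatives were other scaling, filters, bin sizes, pseudocounts, arm limits, a replicate block and leaving out each library or pair. Leaving out the ribosomal RNA window and centring with the block were added after seeing the data.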

Additional observations from a re-analysis of the deposited data

Results flagged for a closer look

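Mitochondrial reads lay outside the nuclear windows compared. The Dam::EMR-1 library of mrg-1 RNAi with cec-4 deleted, replicate 1, held 232 of them, while the GFP::Dam libraries of the same group held 0. The other Dam::EMR-1 libraries under mrg-1 RNAi held 0 to 2, and the GFP::Dam libraries of wild-type cec-4 under mrg-1 RNAi held 16 and 0. Outside this comparison, replicate 1 of Dam::EMR-1 in wild-type larvae under control RNAi held 296.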

How the results depend on the processing

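The autosomal and X arm minus centre differences, the SD of the map and the medians of the lowest and highest wild-type strata kept their direction under each alternative run. For windows whose ratio was called (2), the count was 0 with library size scaling, with the spread from the groups compared only, in 20 kb bins and without the ribosomal RNA window under library size scaling. It was 10 with the replicate block (3 higher, 7 lower) and 6 with the block and library size scaling (3 higher, 3 lower), and 0 to 8 when 1 library was left out, with the 8 (5 higher, 3 lower) found without Dam::EMR-1 replicate 2 of wild-type cec-4. For Dam::EMR-1 alone (140) the count was 16 with library size scaling, 20 with the spread from the groups compared only, 296 with the replicate block, and 17 to 140 when 1 library was left out. For the ratio in 10 kb bins the count was 0 to 16 when 1 library was left out, with the 16 found without Dam::EMR-1 replicate 2 of wild-type cec-4. Parts called (7) became 11 with centring and the replicate block, and 5 to 7 when 1 pair was left out. For the difference between RNAi conditions, parts called were 0 to 1 when 1 pair was left out, with the 1 found without wild-type pair 2, and windows called stayed at 0. GFP::Dam alone stayed at 0 in each setting. The cause of these changes was not tested. Besides these, the replicate block moved no total of adjusted calls by more than 1.5 times.

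Of 234 values of the 18 named windows under alternatives, 198 kept their direction and side of the threshold, 15 lost and 6 gained a call, and 15 changed sign. The last were in windows with a fitted difference smaller than its SE and adjusted p-values far from the threshold. The mrg-1 window gave -0.038 with DESeq2 and -0.32 to 0.47 when 1 library was left out. The elt-7 window gave -0.044 with DESeq2 and -0.16 to 0.17, the emr-1 window -0.77 to 0.13, the hsp-16.41 window -0.023 to 0.54 and the ogt-1 window -0.26 to 0.54. A median 10 kb bin held 110 to 518 reads per library, which limits the precision at that scale.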
